A study of Homo sapiens with 6 samples.

Results

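Annexins, the copies of ANXA2 and its partner S100A10 were followed as the transcripts of 10 genes: ANXA1, ANXA2, the 3 ANXA2 copies, ANXA3, ANXA4, ANXA5, ANXA11 and S100A10. They were taken by gene symbol, current or older, from the platform annotation, and every probe was kept apart. They are 10 of 20043 genes with a probe on the array, and 16 of its 47225 probes. Of these, 15 were detected on at least 3 of the 6 arrays (detection p below 0.01), as were 16835 probes of the array in all. The 10 genes were chosen by their family and from measured values of the same contrast, the lower signal of ANXA2, ANXA2P1 and ANXA2P3 in the knockdown among them. Their differences are therefore given with sizes, errors and intervals as a description, and no p-value is attached to them.

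Annexins are cytosolic proteins that bind acidic membrane lipids when calcium rises, through a conserved core of repeats, and differ mainly in their N-terminal tails. ANXA2 pairs with a dimer of S100A10, a small protein of the S100 family that holds its active shape without calcium, and the complex links membranes to actin filaments and holds plasminogen and its activator at the cell surface. S100A10 protein is known to be protected from breakdown by its binding to ANXA2. The human genome also carries processed copies of ANXA2 (ANXA2P1, ANXA2P2 and ANXA2P3), which RefSeq lists as transcribed pseudogenes.

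Expression was measured with Illumina bead arrays, on which each probe reports the mean brightness of many beads. Arrays of 3 RNA samples came from HCT116 cells with a short hairpin RNA against TCF7L1 (shTCF7L1) and 3 from HCT116 cells with a control hairpin (shCtrl). HCT116 is an established human colorectal carcinoma line, and TCF7L1 is a DNA-binding TCF/LEF factor of the Wnt pathway. The design text of the series describes the RNA samples of a condition as biological replicates and asks which transcripts differ. Both groups are of 1 cell line; hairpin sequences, clones and the time after knockdown were not used here.

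The share of probes detected ranged from 34.0% to 36.8%. Correlations between arrays were 0.974 to 0.977 among replicates and 0.949 to 0.954 across the groups. The 6 arrays shared a chip on which the groups took separate positions, so group and position cannot be told apart. On the second principal component (13.8% of the variance) shTCF7L1 replicate 3 lay at -31.6. The other shTCF7L1 arrays lay at 17.8 and 15.4, and shCtrl at -2.14 to 0.47. Without shTCF7L1 replicate 3 the 6 lower calls of the member probes held. The higher calls of ANXA3 and PLAT and the lower calls of ANXA6 and ANXA10 did not. The TCF7L1 probe was dim, with a bead signal of 29.3, 32.4 and 25.4 in shTCF7L1 and 45.1, 35.8 and 40.6 in shCtrl. It was detected on 0 of 3 shTCF7L1 arrays and 2 of 3 shCtrl arrays, and shCtrl was at least 1.02-fold higher against the detection limit. Its fitted log2 difference was -0.53 (SE 0.20). With the authors' processed values, those below 16 raised to 16, it was -0.029. This floor was set here and not by the authors, whose values had array medians of 4.70 to 5.37. A floor can shrink the difference of a dim probe, so -0.029 does not measure its size. Of 8 epithelial and colon markers, 6 were detected on at least 3 arrays, EPCAM, CDH1, KRT8, KRT18, KRT19 and CDX2, while KRT20 and VIL1 were not. KRT8 fell by 0.82 on the log2 scale (SE 0.24, limma adjusted p = 0.034), and CDH1 (-0.53, adjusted p = 0.0846) and KRT18 (-0.37, adjusted p = 0.21) did not pass, though their groups did not overlap. The summed epithelial marker signal was 7188 to 9756 in shTCF7L1 and 7972 to 9949 in shCtrl. Of 5 fibroblast markers only COL1A1 was detected on at least 3 arrays, with 176, 85.4 and 129 in shTCF7L1 and 49.4, 60.3 and 70.7 in shCtrl, while COL1A2 and LUM were detected on none. COL1A1 rose by 1.14 on the log2 scale (SE 0.28, limma adjusted p = 0.0128). The summed fibroblast marker signal was 199 to 313 in shTCF7L1 and 164 to 197 in shCtrl, and the part of these markers in the results was not tested. The endothelial and blood markers summed to 120 to 134 in shTCF7L1 and 108 to 130 in shCtrl per class, with 1 of 8 detected on at least 3 arrays, and the liver markers to 80.5 to 93.0 in shTCF7L1 and 76.5 to 81.2 in shCtrl, with 1 of 2 detected.

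The start regions of ANXA2, ANXA1 and S100A10 are shown because their transcripts were lower, higher and little different in shTCF7L1. Each runs from 250 bases before to 50 bases after the RefSeq start (GRCh38.p14), 5′ to 3′ on the gene's own strand. Capitals mark an AP-1 match (TGANTCA) and a TATA match (TATAAA) in ANXA2, TCF/LEF matches (CTTTGAA or its forms CTTTGAT, as well as CTTTGTA or its other form CTTTGTT) and a TATA match in ANXA1, and a GC box match (GGGCGG) in S100A10.
ANXA2 promoter, chr15:60397937-60398236, minus strand: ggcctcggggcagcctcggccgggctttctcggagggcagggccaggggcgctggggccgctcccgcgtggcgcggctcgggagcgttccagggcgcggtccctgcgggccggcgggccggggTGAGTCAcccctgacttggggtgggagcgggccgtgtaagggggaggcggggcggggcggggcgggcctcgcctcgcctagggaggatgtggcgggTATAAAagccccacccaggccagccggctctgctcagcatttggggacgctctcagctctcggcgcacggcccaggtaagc
ANXA1 promoter, chr9:73151615-73151914, plus strand: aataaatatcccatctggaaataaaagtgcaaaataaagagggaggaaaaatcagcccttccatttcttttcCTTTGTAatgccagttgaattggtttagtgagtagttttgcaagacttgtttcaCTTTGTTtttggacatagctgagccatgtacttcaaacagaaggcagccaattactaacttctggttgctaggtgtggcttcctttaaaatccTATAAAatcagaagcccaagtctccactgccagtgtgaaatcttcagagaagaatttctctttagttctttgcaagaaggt
S100A10 promoter, chr1:151993810-151994109, minus strand: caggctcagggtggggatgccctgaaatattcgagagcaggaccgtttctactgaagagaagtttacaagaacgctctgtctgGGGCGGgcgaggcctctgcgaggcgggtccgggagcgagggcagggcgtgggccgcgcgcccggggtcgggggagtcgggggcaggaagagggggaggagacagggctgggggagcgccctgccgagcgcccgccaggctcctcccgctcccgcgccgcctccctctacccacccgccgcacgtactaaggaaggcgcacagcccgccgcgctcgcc

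The 3 regions differ in letters and base content. In ANXA2 the AP-1 match lies at -127 to -121 and the TATA match at -31 to -26 relative to the start, and 3 GC box matches that overlap by a base each, left in lower case, lie between -78 and -63. The ANXA1 region, with 37.7% G and C against 76% in ANXA2 and 71.7% in S100A10, holds its TCF/LEF matches at -178 to -172 and -124 to -118 and its TATA match at -31 to -26. Over all 35116 RefSeq start regions of this length, read on both strands, 13.8% held a TCF/LEF match, 7.71% an AP-1 match, 11.5% a TATA match and 45% a GC box. RefSeq start regions were at hand for 7 of the 10 genes, and a TCF/LEF match was found in that of ANXA1 alone among the 7. A match is a string of letters and shows no binding.

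Across the 15 tested probes, 6 passed as lower in shTCF7L1 and 2 as higher, and 7 did not pass; passing here means an adjusted p below 0.05 in limma. Of all 16835 tested probes 6.58% passed as lower and 6.46% as higher. The groups did not overlap for 6 member probes that were lower and 3 that were higher, and over all tested probes this held for 15.9% below and 16.5% above. These shares are given beside the counts only for scale, since the genes were picked with this contrast known. The median log2 difference was -0.14 over the 15 probes and 0.0076 over all tested probes. All 6 lower probes carried the names of ANXA2, ANXA2P1 or ANXA2P3. In RNA from whole cultures, fewer cells with a transcript and less of it per cell cannot be told apart.

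**Figure D1:**
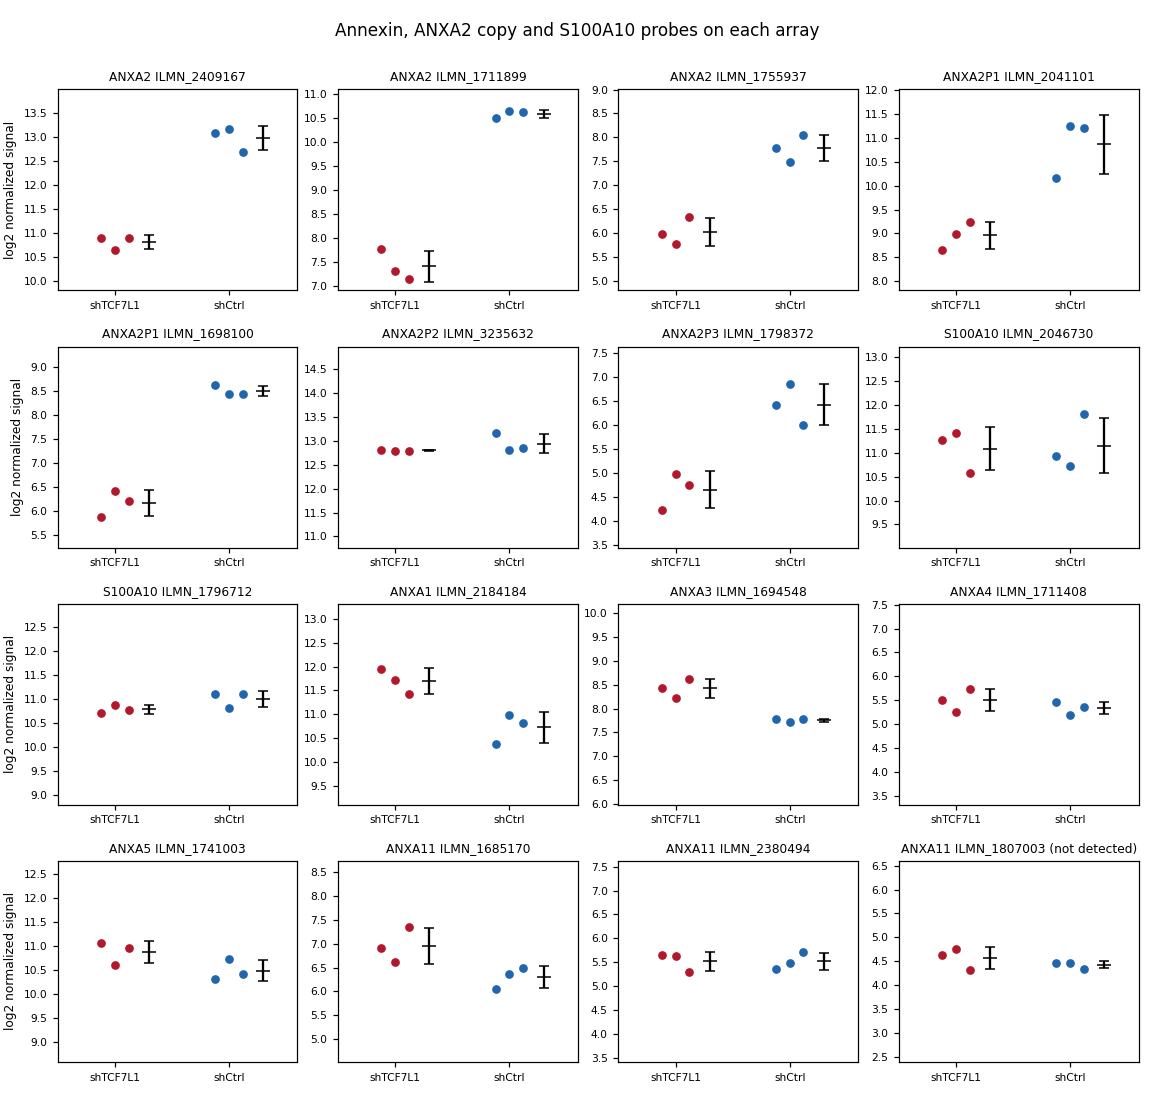
Log2 normalized signal (vertical axis, 4.2 log2 units in every panel) of the 16 probes on each array, shTCF7L1 in red on the left and shCtrl in blue on the right, with the mean and SD of 3 arrays beside the points. The groups stand apart for the ANXA2, ANXA2P1 and ANXA2P3 probes and lie at similar heights for ANXA2P2 and S100A10.

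ANXA2 held the member probe with the largest decrease, and all 3 of its probes were lower in shTCF7L1. Probe ILMN_2409167 had bead signals of 1883, 1629.8 and 1876 in shTCF7L1, against 9203, 9389.8 and 6624 in shCtrl. All knockdown arrays were far below all control arrays, and shCtrl replicate 3 was the lowest of the controls. On the normalized log2 scale this was 10.81 ± 0.15 in shTCF7L1 and 12.98 ± 0.25 in shCtrl (SD, n = 3 each), a difference of -2.17 (SE 0.21, 95% interval -2.60 to -1.73), or 4.50-fold.

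Probe ILMN_1711899 showed the widest gap. Its bead signals were 237, 178 and 156 in shTCF7L1, against 1559.7, 1542 and 1620.0 in shCtrl. The control arrays lay close together, while shTCF7L1 replicate 1 was the brightest of the knockdown arrays. The log2 level was 7.41 ± 0.32 in shTCF7L1 and 10.59 ± 0.086 in shCtrl, which gave a difference of -3.19 (SE 0.21, 95% interval -3.64 to -2.74), or 9.12-fold. In order of log2 difference it stood second lowest of all 16835 tested probes, and ILMN_2409167 stood at place 13.

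Probe ILMN_1755937 had bead signals of 77.4, 69.3 and 94.3 in shTCF7L1 and 240.0, 174 and 266 in shCtrl. The groups did not overlap here either. The log2 difference was -1.75 (SE 0.22, 95% interval -2.21 to -1.28), or 3.35-fold. The ANXA2 probes thus differed in size but not in direction. Measured as the per-array difference between probes, the change of ILMN_1711899 was larger than that of ILMN_1755937 by -1.44 on the log2 scale, with SDs between arrays of 0.51 in shTCF7L1 and 0.30 in shCtrl. Against ILMN_2409167 the gap was -1.02, with SDs of 0.31 in shTCF7L1 and 0.28 in shCtrl. The cause of these gaps was not tested.

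The ANXA2 copies did not all behave alike on their probes. For ANXA2P1, probe ILMN_2041101 had bead signals of 422, 543 and 607 in shTCF7L1, against 1225, 2349 and 2415 in shCtrl. Replicate 1 of shCtrl was the dimmest control array and still brighter than every knockdown array. The log2 level was 8.96 ± 0.29 in shTCF7L1 and 10.86 ± 0.62 in shCtrl (SD, n = 3 each), a difference of -1.90 (SE 0.27, 95% interval -2.48 to -1.33).

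The other ANXA2P1 probe, ILMN_1698100, had bead signals of 72.5, 101 and 86.5 in shTCF7L1 and 429, 329.6 and 351 in shCtrl. Here the control arrays were tightly grouped and the difference larger, at -2.35 on the log2 scale (SE 0.21, 95% interval -2.79 to -1.91), or 5.10-fold. ANXA2P3 (ILMN_1798372) was dim, with 24.2, 44.7 and 39.3 in shTCF7L1 and 98.9, 118 and 73.7 in shCtrl. It was above background on 1 of 3 knockdown arrays and on 3 of 3 control arrays. Its log2 difference was -1.78 (SE 0.25, 95% interval -2.31 to -1.25), a size that depends on the background setting: with a background offset of 50 it was -1.02.

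ANXA2P2 stood apart from the other copies. Its probe ILMN_3235632 was bright on every array, with 7163, 6987 and 6540.3 in shTCF7L1 and 9629.5, 7279 and 7473 in shCtrl. Replicate 1 of shCtrl was the brightest. The bead signals did not overlap, but the normalized group ranges did. The log2 level was 12.80 ± 0.015 in shTCF7L1 and 12.94 ± 0.20 in shCtrl, and the difference of -0.14 (SE 0.20) had a 95% interval of -0.56 to 0.27. Without shCtrl replicate 1 it was -0.032. Set against this probe on the same arrays, ANXA2 probe ILMN_2409167 changed by -2.03 more on the log2 scale, with SDs between arrays of 0.14 in shTCF7L1 and 0.28 in shCtrl. ANXA2P1 probe ILMN_2041101 changed by -1.76 more, with SDs of 0.30 in shTCF7L1 and 0.81 in shCtrl. The probe sequences were not used here and were not compared with ANXA2 and its copies, so which transcript each of these probes reads is uncertain.

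**Figure D2:**
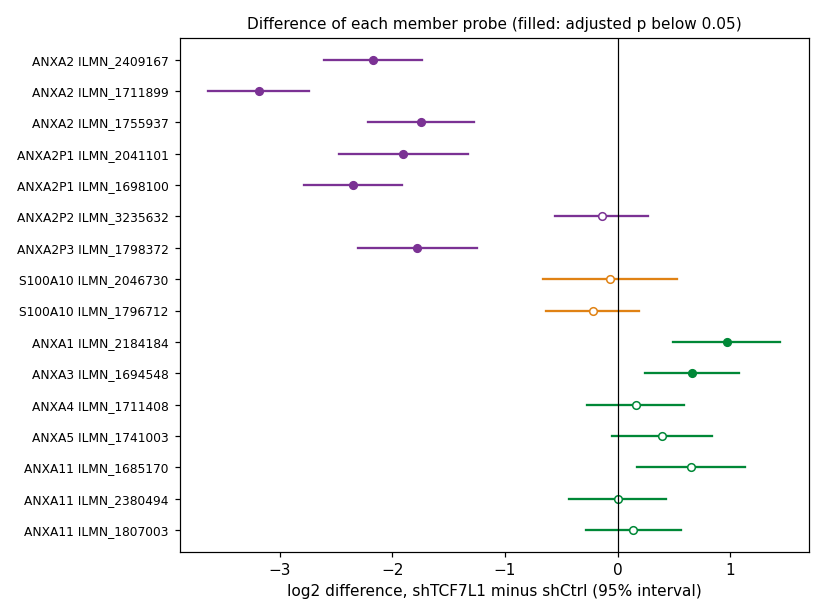
Log2 difference of each of the 16 probes, shTCF7L1 minus shCtrl, with its 95% interval (horizontal axis), in purple for ANXA2 and its copies, orange for S100A10 and green for the other annexins, with filled points for an adjusted p below 0.05. The ANXA2, ANXA2P1 and ANXA2P3 intervals lie between -3.64 and -1.25, that of ANXA2P2 spans 0.

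S100A10, the partner of ANXA2, showed no such gap on either probe. Probe ILMN_1796712 had bead signals of 1652, 1884.6 and 1682 in shTCF7L1, against 2350.4, 1729.8 and 2279.9 in shCtrl. Most arrays of the knockdown were dimmer, but shCtrl replicate 2 was below shTCF7L1 replicate 2, so the groups overlapped. The log2 difference was -0.22 (SE 0.20, 95% interval -0.63 to 0.19).

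Probe ILMN_2046730 varied more within each group, with 2393, 2716 and 1467 in shTCF7L1 and 2096, 1601 and 3762 in shCtrl. Replicate 3 of shTCF7L1 was the lowest of all arrays and shCtrl replicate 3 the highest. Its log2 difference of -0.065 (SE 0.28, 95% interval -0.66 to 0.53) was positive without shCtrl replicate 3 (0.26) or without shTCF7L1 replicate 3 (0.19). Both S100A10 intervals end, at -0.63 and -0.66, above the intervals of all ANXA2 probes, of which the nearest ends at -1.28.

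The members ANXA1, ANXA3, ANXA4, ANXA5 and ANXA11 had log2 differences above 0 on all 6 of their tested probes, of which 2 passed. On the ANXA11 probe nearest to 0 this sign changed when single arrays were left out. Over all tested probes the median log2 difference was 0.0076, and 6.46% passed as higher. These members were chosen with this contrast known. Of the tested annexins outside them, ANXA6 (-0.80) and ANXA10 (-0.70) fell, and ANXA7 (0.48) did not pass. ANXA1, which is induced by glucocorticoids, inhibits phospholipase A2 and signals through formyl peptide receptors, was the highest of these members. Its probe ILMN_2184184 had bead signals of 3868, 3360.0 and 2651 in shTCF7L1, against 1437, 1969.5 and 1847 in shCtrl. Every knockdown array was brighter than every control array, with shTCF7L1 replicate 3 nearest to them. The log2 level was 11.70 ± 0.27 in shTCF7L1 and 10.73 ± 0.32 in shCtrl (SD, n = 3 each), a difference of 0.97 (SE 0.22, 95% interval 0.50 to 1.44), or 1.96-fold. It did not pass without shCtrl replicate 1, where it was 0.79, nor without a detection filter.

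ANXA3 (ILMN_1694548) had bead signals of 364, 326 and 406 in shTCF7L1, against 239, 203 and 223 in shCtrl. The groups did not overlap and the control arrays were close together. The log2 difference was 0.66 (SE 0.20, 95% interval 0.24 to 1.08), or 1.58-fold. Its call depended on the number of arrays: it did not pass without shCtrl replicates 1 (0.67), 2 (0.64) or 3 (0.67), nor without shTCF7L1 replicates 1 (0.66) or 3 (0.56).

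ANXA5, whose protein binds phosphatidylserine and serves as a stain for dying cells, did not pass. Its probe ILMN_1741003 had 2107, 1589 and 1956 in shTCF7L1 and 1376, 1618 and 1401 in shCtrl, and shTCF7L1 replicate 2 lay among the controls. The log2 difference was 0.39 (SE 0.21, 95% interval -0.051 to 0.84). ANXA4 (ILMN_1711408), an annexin of secretory epithelia, was close to background with 58.6, 52.1 and 66.0 in shTCF7L1 and 55.9, 45.6 and 51.5 in shCtrl. Its groups overlapped, and the log2 difference was 0.16 (SE 0.20, 95% interval -0.27 to 0.59).

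ANXA11, which has a long N-terminal tail and binds the calcium sensor encoded by PDCD6, gave different pictures on its probes. Probe ILMN_1685170 had 136, 114 and 178 in shTCF7L1, against 79.1, 86.4 and 99.4 in shCtrl, without overlap. Its log2 difference of 0.65 (SE 0.23, 95% interval 0.17 to 1.13) did not pass, though it did with median scaling (0.72) and without shTCF7L1 replicate 2 (0.82). Without shTCF7L1 replicate 3 it was 0.45.

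The second ANXA11 probe, ILMN_2380494, had 63.4, 63.8 and 52.2 in shTCF7L1 and 53.0, 52.8 and 62.3 in shCtrl. Its groups overlapped, with a log2 difference of 0.0025 (SE 0.20, 95% interval -0.43 to 0.43). The per-array gap between these probes was 0.65 on the log2 scale, with an SD of 0.56 in shTCF7L1 and 0.083 in shCtrl. The third, ILMN_1807003, was not above background on any of the 6 arrays.

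**Figure D3:**
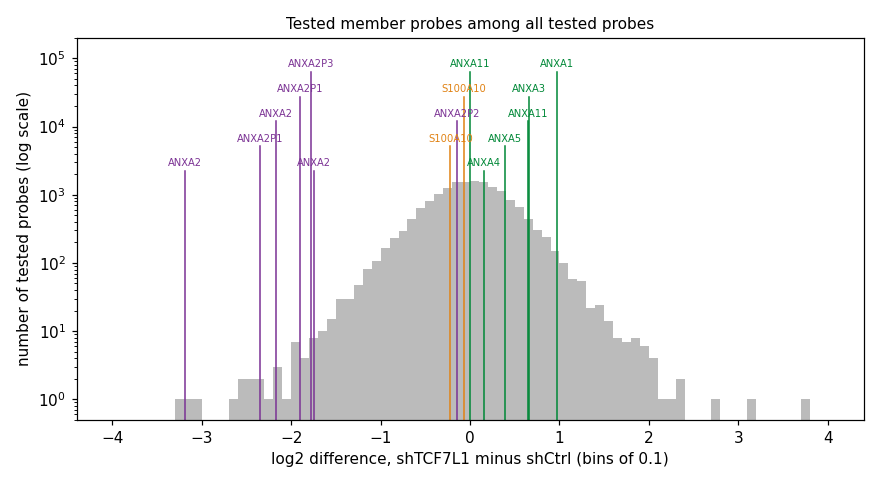
Number of tested probes (vertical axis, log scale) in bins of 0.1 of the log2 difference, shTCF7L1 minus shCtrl (horizontal axis), with the 15 tested member probes drawn as labelled lines in the colours used for purple ANXA2 and copies, orange S100A10 and green other annexins. Of 16835 probes, 355 lay below -1 and 312 above 1, and the 6 lower member probes lie in the left tail.

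Leaving out arrays or changing the processing moved the sizes more than the signs. Over 16 alternatives the 3 ANXA2 probes kept values between -2.32 and -2.06 (ILMN_2409167), -3.38 and -2.95 (ILMN_1711899) and -1.91 and -1.35 (ILMN_1755937), and passed in all 16. The ANXA2P1 probes passed in all 16 as well. These genes were chosen with this contrast known, and the alternatives reuse the same arrays. Repeated passing therefore describes the effect of the processing and is no independent support. The ANXA2P3 probe met the detection filter through the control arrays, where it was brighter, and passed in each alternative in which it was tested. With detection on all arrays it was not tested, and 5 member probes passed as lower. ANXA2P2 stayed between -0.26 and -0.032 and passed in none. With the authors' own processed values, of all probes 1177 were called higher and 614 lower, against 1087 and 1108 here, and the member calls were 6 lower and 2 higher with both.

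**Figure D4:**
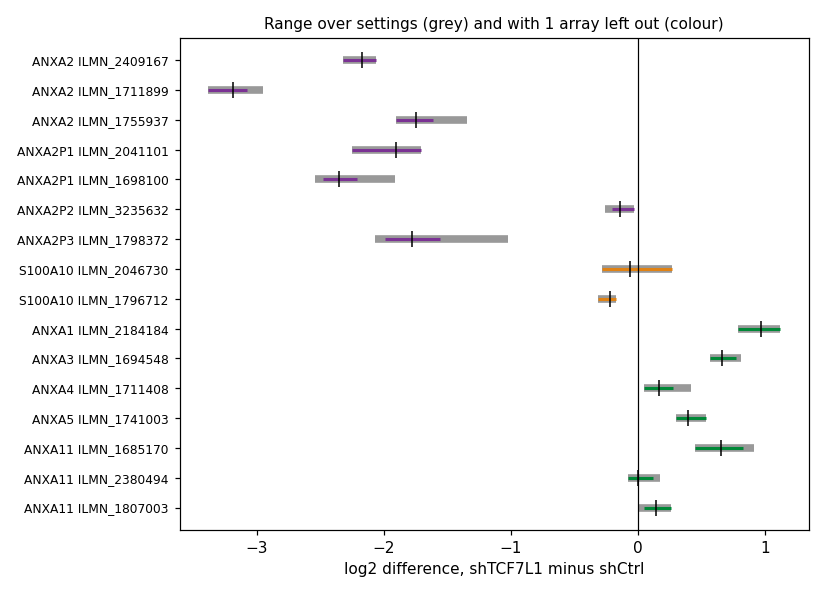
Range of the log2 difference, shTCF7L1 minus shCtrl (horizontal axis), of each member probe over the 16 alternatives and the reported setting (grey bars) and with single arrays left out (coloured bars), with the reported value as a black tick. The bars of the ANXA2, ANXA2P1 and ANXA2P3 probes end at -1.02 or below, and those of ILMN_2046730 for S100A10 and ILMN_2380494 for ANXA11 cross 0.

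By Pearson correlation of levels over the 6 arrays, the genes most like ANXA2 (ILMN_2409167) among 10334 genes were NUDCD2 (r = 0.998), GALNT1 (0.996), RRM2 (0.994), MAPK3 (0.994) and PTTG3P (0.993). The arrays form 2 groups, so this likeness follows the difference between groups and is a description. GALNT1, which starts mucin-type O-glycosylation, had bead signals of 49.3, 43.0 and 50.3 in shTCF7L1 and 117, 125 and 96.9 in shCtrl, 3.01-fold lower in the knockdown. MAPK3, the kinase ERK1, had 129, 135 and 153 in shTCF7L1 and 579, 472 and 411 in shCtrl, 3.91-fold lower. A lower level in the knockdown was fixed by this choice of genes, and no p-value is given for it. RRM2, a ribonucleotide reductase subunit, had a log2 difference of -2.59, and NUDCD2 and PTTG3P were 1.64-fold and 1.75-fold lower.

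Genes that lie within 1 Mb of ANXA2 in RefSeq (GRCh38.p14) did not share its size of change. Among 6 with a tested probe, 1 fell, 0 rose and 5 missed the threshold. Of all 10470 genes, each taken by its brightest probe, 6.70% fell and 7.35% rose. The median log2 difference of the 6 neighbours was -0.34 and their range -0.71 to 0.53. The gene that fell was FAM81A (-0.71, SE 0.19, limma adjusted p = 0.0221), detected on 2 of 3 knockdown and 3 of 3 control arrays. GCNT3 (-0.60) and GTF2A2 (-0.53) lay below and MYO1E (0.53) above without overlap of the groups, and none of them passed. BNIP2 gave 0.10, with overlap. ICE2, the nearest tested neighbour, gave -0.15 (SE 0.23, adjusted p = 0.713 in limma). This window was chosen after values had been seen.

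Of 7 further annexins on the array 3 had a tested probe, and 2 fell. ANXA6, an annexin with a doubled core, had bead signals of 38.8, 49.5 and 40.2 in shTCF7L1 and 58.5, 64.7 and 61.5 in shCtrl, and was above background on 1 of 3 knockdown arrays. It fell by 0.80 on the log2 scale (SE 0.21, limma adjusted p = 0.0179). Its probe met the detection filter through the control arrays, where it was brighter, and was not tested with detection on all arrays. ANXA10, known from gastric epithelium, had 322, 377 and 270.5 in shTCF7L1 and 547, 427 and 498 in shCtrl, and fell by 0.70 (SE 0.20, limma adjusted p = 0.0296). In both genes all knockdown arrays were below all control arrays.

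ANXA7, which binds the calcium protein sorcin, had 682, 781 and 789 in shTCF7L1 and 449, 585 and 573 in shCtrl. Its log2 difference of 0.48 (SE 0.21, limma adjusted p = 0.146) did not pass. ANXA8, ANXA8L1, ANXA9 and ANXA13 had no probe that was detected on at least 3 arrays. Among all 10470 genes, each taken by its brightest probe, 6.70% fell and 7.35% rose, and the median log2 difference was 0.02. The call of ANXA6 ended without shCtrl replicate 2 (adjusted p = 0.0696), shTCF7L1 replicate 1 (0.0684) or shTCF7L1 replicate 3 (0.0561), and the call of ANXA10 held when shTCF7L1 replicate 2 was the array left out, but for none of the other 5 (adjusted p up to 0.0994). ANXA6 also missed the threshold with a background offset of 50 (0.0553) and ANXA10 with the authors' values (0.0614).

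Of 19 other S100 genes on the array 7 were tested. S100A14 was the 1 that fell, 0 rose, and 6 missed the threshold. Of all 10470 genes 6.70% fell and 7.35% rose. The median log2 difference of the 7 was -0.20. S100A14 had bead signals of 130.2, 139 and 136 in shTCF7L1, against 252, 178 and 233 in shCtrl. It fell by 0.84 on the log2 scale (SE 0.20, limma adjusted p = 0.0102) and passed in all 16 alternatives, and its groups did not overlap. S100A6, known to bind annexins, and S100A11, a partner of ANXA1, gave 0.10 (SE 0.26) and 0.31 (SE 0.22), and neither passed.

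Partners of the ANXA2-S100A10 complex and the plasmin system gave 1 gene that rose of 11 tested and 0 that fell. The other 10 missed the threshold, and the median log2 difference was 0.04. Of all 10470 genes 7.35% rose and 6.70% fell. PLAT, the tissue plasminogen activator that the complex holds at the cell surface, had 151, 125 and 148 in shTCF7L1 and 92.6, 77.2 and 93.6 in shCtrl. All knockdown arrays were above all control arrays, and the rise was 0.67 on the log2 scale (SE 0.20, limma adjusted p = 0.0339). It still passed when shTCF7L1 replicate 2 was left out, and missed the threshold when any of the other 5 was (adjusted p up to 0.108). The receptor of urokinase, PLAUR, gave 0.55 on its brightest probe (SE 0.19, limma adjusted p = 0.071) and 0.04 and 0.24 on its others. Of 2 tested genes of the ANXA1 axis, the receptor FPR1 (-0.34, SE 0.23, limma adjusted p = 0.355) and the phospholipase PLA2G4A (0.19, SE 0.20), neither passed, and neither did at an unadjusted p below 0.05.

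Membrane repair, in which several annexins take part, was a mixed group: of 18 tested genes 4 rose and 2 fell. The remaining 12 missed the threshold, and the median log2 difference was 0.06. Among the 12 was SRI, by its brightest probe (-0.41). Its probe ILMN_2400219 passed as lower (-0.71, SE 0.19, limma adjusted p = 0.0239), and ILMN_1699525 (-0.48) did not pass. Of all 10470 genes 7.35% rose and 6.70% fell. VPS4B, an ATPase that recycles the ESCRT machinery, had 221, 176 and 226 in shTCF7L1 and 529, 514 and 579 in shCtrl, and fell by 1.51 on the log2 scale (SE 0.20, limma adjusted p = 0.000255). CAPNS1, the small subunit of the calpain proteases, had 254, 369.8 and 326 in shTCF7L1 and 742, 576 and 539.5 in shCtrl, and fell by 1.06 (SE 0.21, adjusted p = 0.00412 in limma). For both genes the knockdown arrays were below the control arrays without overlap, and the second CAPNS1 probe gave -1.14.

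The 4 that rose were MYOF, CAV2, EHD1 and EHD2, while another ferlin, DYSF (-0.34), and another caveolin, CAV1 (-0.30), did not pass. The ferlin MYOF had 1284, 1115 and 1211 in shTCF7L1 and 567, 737 and 526 in shCtrl, a rise of 1.00 on the log2 scale (SE 0.21, limma adjusted p = 0.00643), with 0.63 and 0.66 on its other probes. The caveolin CAV2 had 678, 784 and 626 in shTCF7L1 and 374, 249.5 and 415 in shCtrl, and rose by 1.01 (SE 0.21, limma adjusted p = 0.00581), with 0.47 and 1.37 on its others. EHD1 and EHD2, membrane-bending ATPases, rose by 0.92 (SE 0.24) and 0.76 (SE 0.19). Without shCtrl replicates 2 or 3 or shTCF7L1 replicate 1, 4 of the 18 genes passed in place of 6: EHD1 did not pass in any of these 3 fits (adjusted p up to 0.0974), and EHD2 did not without shCtrl replicate 2 or shTCF7L1 replicate 1 (up to 0.059). Without shCtrl replicate 3 the brightest CAV2 probe was ILMN_1735220, which gave 0.10 and did not pass (adjusted p = 0.859 in limma). The same probe stood for CAV2 without shTCF7L1 replicate 2, where it gave 0.73 and did not pass (adjusted p = 0.17 in limma). ILMN_1658835 still passed in both fits. EHD1 also missed the threshold with the authors' values (0.0671) and with no detection filter (0.153).

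**Figure D5:**
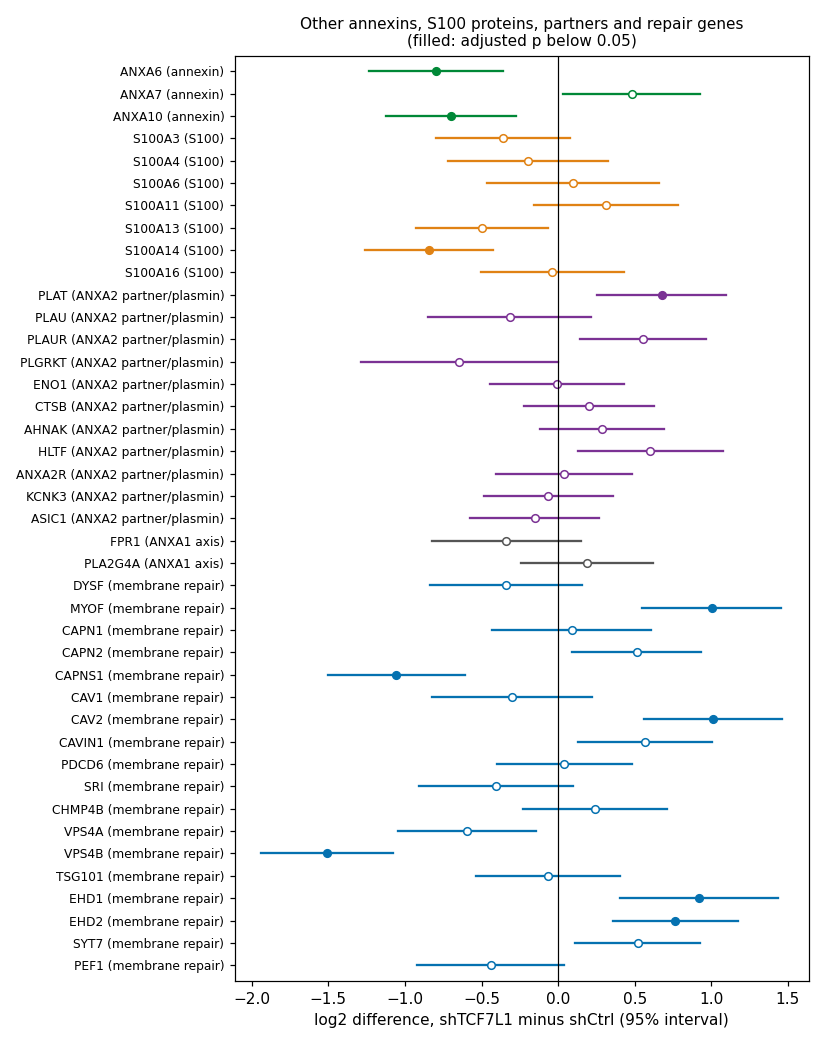
Log2 difference, shTCF7L1 minus shCtrl, with its 95% interval (horizontal axis) for the 41 tested genes of the lists of other annexins (green), S100 proteins (orange), ANXA2 partners and plasmin system (purple), ANXA1 axis (grey) and membrane repair (blue), each by its brightest probe, with filled points for an adjusted p below 0.05. VPS4B lies farthest to the left at -1.51, and CAV2 and MYOF farthest to the right.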

How the data were processed

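The intensity values were deposited by the authors as average bead signals on a linear scale, 1 per probe and array, per the file headers, and were made with GenomeStudio version 2011.1, per the submitters' processing notes. Detection p-values against negative control beads were deposited beside them, per the file headers. Of other settings upstream, the sources used here give none. The deposited series matrix holds the same intensity values, as a straight-line function with a common array mean of 145.7, and served as an alternative.

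Signals were corrected with normexp (background inferred from the detection p-values, offset 16), quantile normalized and logged by the neqc function (limma 3.58.1, run under R 4.3.3). Probes detected at p below 0.01 on at least 3 of 6 arrays were fitted with limma (lmFit, eBayes, 2-sided), with Benjamini-Hochberg adjustment over all 16835. Log2 differences are shTCF7L1 minus shCtrl. Listed genes are represented by their brightest kept probe. The platform annotation named 1 gene for 30110 probes, and 30071 were updated through Entrez identifiers with RefSeq (GRCh38.p14).

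Named were all member probes, the further annexins tested, up to 6 called genes of each list (otherwise the gene of smallest p) and the 5 genes most correlated with ANXA2; others were named after their values were seen. The members and lists were chosen with earlier results of these data known. The fit was also run on simulated data with known changes, of which it recovered some but not all. The alternatives were other backgrounds, scalings, filters, variance models, a replicate block, the mean of probes and single arrays left out. Same-numbered arrays of the 2 groups did not deviate together (r between -0.0025 and 0.0045), so the fit has no block. The number of arrays limits the precision.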

Additional observations from a re-analysis of the deposited data

How the results depend on the processing

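The count of changed probes, 2195, was 1278 without a detection filter, 1446, 1387 and 1426 without shCtrl replicates 1, 2 and 3, 1432 without shTCF7L1 replicate 1, and 1387 to 1580 over all single arrays left out. Of the calls, 49.5% were higher, against 65.7% with the authors' values and 57.7% with median scaling. The replicate block gave 2127 and changed no call of a member or list. The 8 member calls numbered 6 to 9 over the arrays left out. The list of other annexins, 2 calls, had 1 with a background offset of 50, with the authors' values or with detection on all arrays, and 0 to 2 with single arrays left out. The plasmin list, 1 call, had 2 with a background offset of 50, median scaling, the authors' values or no detection filter, and 0 to 1 with single arrays left out. PLAUR was the added call in these 4 settings, and PLGRKT (-1.04) passed without shCtrl replicate 3 and HLTF (0.82) without shTCF7L1 replicate 1, in place of PLAT. The signs of 2 near-zero probes turned when single arrays were left out: ANXA11 ILMN_2380494 (0.0025) ranged from -0.081 to 0.11 and S100A10 ILMN_2046730 (-0.065) from -0.28 to 0.26. The cause of these changes was not tested. Probes near background, among them ANXA2P3, ANXA6 and TCF7L1, have sizes that shrink with a larger offset.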
